A study of Mus musculus with 12 samples.

Results

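The serpins are a family of proteins that mostly inhibit serine proteases. They were followed here through 7 member genes, Serpina1b, Serpina1c, Serpina3k, Serpina6, Serpinc1, Serpinf1 and Serpinh1. These were chosen by name, with earlier results of these data known. All probe sets whose single gene symbol in the platform annotation was a member were taken. This gave 9 probe sets for 6 of the 7 members, among 8251 genes in all; Serpina3k is not analysed here. A single adult NMR-1 mouse gave the total RNA, taken from its liver, the tissue labelled cortex and the cerebellum, for MG_U74Av2 arrays, oligonucleotide arrays on which a probe set is a group of short probes for a transcript. All tissues came from this animal, were extracted with TRIzol and purified on RNeasy columns. The standard Affymetrix protocol, called 1X, began with 5 µg of RNA and a single linear amplification, a transcription step that multiplies RNA in proportion to its amount. The 3X procedure began with 1 ng and used 3 linear amplifications, 2 of them with the RiboAmp HS kit for small samples. Input, kit and rounds of amplification changed together and cannot be told apart. A tissue was measured on 1 array at 1X and on 3 arrays, technical replicates, at 3X, which makes 12 arrays in 6 groups. The p-values therefore reflect nothing but the spread among the arrays of this animal.

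A serpin inhibitor carries an exposed loop that a protease cuts; the cut traps the protease in an inactive complex with the serpin. The liver secretes many of them into plasma, where they restrain neutrophil elastase, the clotting enzymes and other proteases. Some members have left inhibition behind: Serpina6 is the corticosteroid-binding globulin of plasma, Serpinf1 is the secreted factor PEDF, and Serpinh1 (HSP47) is a collagen chaperone of the endoplasmic reticulum that is induced by heat shock. Serpina1b and Serpina1c are mouse copies of the gene for alpha-1-antitrypsin, the elastase inhibitor, and Serpinc1 encodes antithrombin, the main inhibitor of thrombin.

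In the RefSeq gene order of assembly GRCm38.p6, Serpina1b, Serpina1d, Serpina1a, Serpina1c and Serpina1e follow each other on chromosome 12, and Serpina6 lies in the same cluster next to Serpina10. Serpinc1 is on chromosome 1, Serpinf1 on chromosome 11 beside Serpinf2, and Serpinh1 on chromosome 7. RefSeq promoter windows of that assembly, 250 bases before to 50 after the start, were matched by symbol for 5 of the 6 measured members. They are shown because Serpina1b and Serpina1c were the members with the largest liver differences, and Serpinc1 and Serpinh1 stand for a secreted liver serpin and for the chaperone. Each sequence is the stretch of 170 bases directly before the start, 5′ to 3′ on the strand of the gene, at chr12:103738190-103738359 (minus strand) for Serpina1b, chr12:103904951-103905120 (minus strand) for Serpina1c, chr1:160978413-160978582 (plus strand) for Serpinc1 and chr7:99353240-99353409 (minus strand) for Serpinh1. Capitals mark GTTAAT, a part of the binding motif of the liver factor HNF1, and TTGCNNAA, a motif of the C/EBP factors.
Serpina1b: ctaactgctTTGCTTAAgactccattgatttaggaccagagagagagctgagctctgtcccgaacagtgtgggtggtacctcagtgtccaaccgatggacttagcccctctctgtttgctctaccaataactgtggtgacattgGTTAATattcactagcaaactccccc
Serpina1c: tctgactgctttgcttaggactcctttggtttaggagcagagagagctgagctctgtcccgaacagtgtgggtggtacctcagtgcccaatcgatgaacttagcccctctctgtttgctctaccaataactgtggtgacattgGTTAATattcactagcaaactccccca
Serpinc1: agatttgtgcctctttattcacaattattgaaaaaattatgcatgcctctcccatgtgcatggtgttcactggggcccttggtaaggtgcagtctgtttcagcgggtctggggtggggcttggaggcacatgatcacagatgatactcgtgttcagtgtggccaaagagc
Serpinh1: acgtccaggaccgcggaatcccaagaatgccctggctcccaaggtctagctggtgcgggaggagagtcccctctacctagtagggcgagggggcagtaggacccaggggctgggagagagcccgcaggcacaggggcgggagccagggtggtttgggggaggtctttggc

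The search covered both strands of the 250 bases before the start. GTTAAT began 26 bases before the start of Serpina1b and 27 bases before that of Serpina1c, and it was present in the windows of all 5 Serpina1 genes. Of all 32851 promoter windows, 6.43% held it. TTGCNNAA was found 161 bases before the start of Serpina1b, but not in the window of Serpina1c, against 9.56% of all windows. The windows of Serpina1b and Serpina1c shared 229 of 248 aligned bases (92.3%), with a longest identical run of 72 bases. The windows of the 10 pairs of Serpina1 genes were 92.1% to 98.0% identical over the bases that aligned. None of the searched motifs was found in the windows of Serpinc1, Serpinf1 or Serpinh1; the others were the HNF4 motif CAAAGTCCA (0.384% of all windows), the full HNF1 palindrome (0.00913%) and the heat shock element (0.466%), whose 2 forms are each other's reverse complement. A match describes these letters and was not tested as a binding site.

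The values are log2 signals that the authors made with RMA, which gives no call of presence; where the lower signal is dim, a difference cannot be read as a ratio of RNA amounts. The array medians lay between 3.45 and 3.48. Differences were tested with limma over 12422 probe sets and are given on the log2 scale with their standard error (SE); a probe set was called at a Benjamini-Hochberg adjusted p under 0.05. The labelled tissues carried their markers. Of measured hepatocyte markers 11 of 11 were called higher in 3X liver than in brain, against 8.17% of all probe sets. Of 11 neuron markers 8 were called lower, against 12.3%. The cerebellum arrays differed from cortex in markers of other tissues and cells. The linear signals of 13 kidney markers summed to 973 on the 1X cerebellum array against 172 on the 1X cortex array, and to 349.9 to 369.3 against 191.0 to 198.2 at 3X. Sums were also higher in cerebellum for 4 blood cell markers (737.4 against 287.7 at 1X, 177.5 to 187.2 against 142.9 to 159.0 at 3X) and 6 oligodendrocyte markers (7944 against 2244 at 1X, 970.9 to 1181 against 580.0 to 629.5 at 3X), and lower for 5 choroid plexus markers (674.4 against 3198 at 1X, 978.9 to 1137 against 2187 to 2352 at 3X). Liver is therefore also compared with cortex alone, which does not use the cerebellum levels. The liver 3X replicates correlated with the 1X liver array across probe sets at r = 0.894, 0.893 and 0.928.

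**Figure D1:**
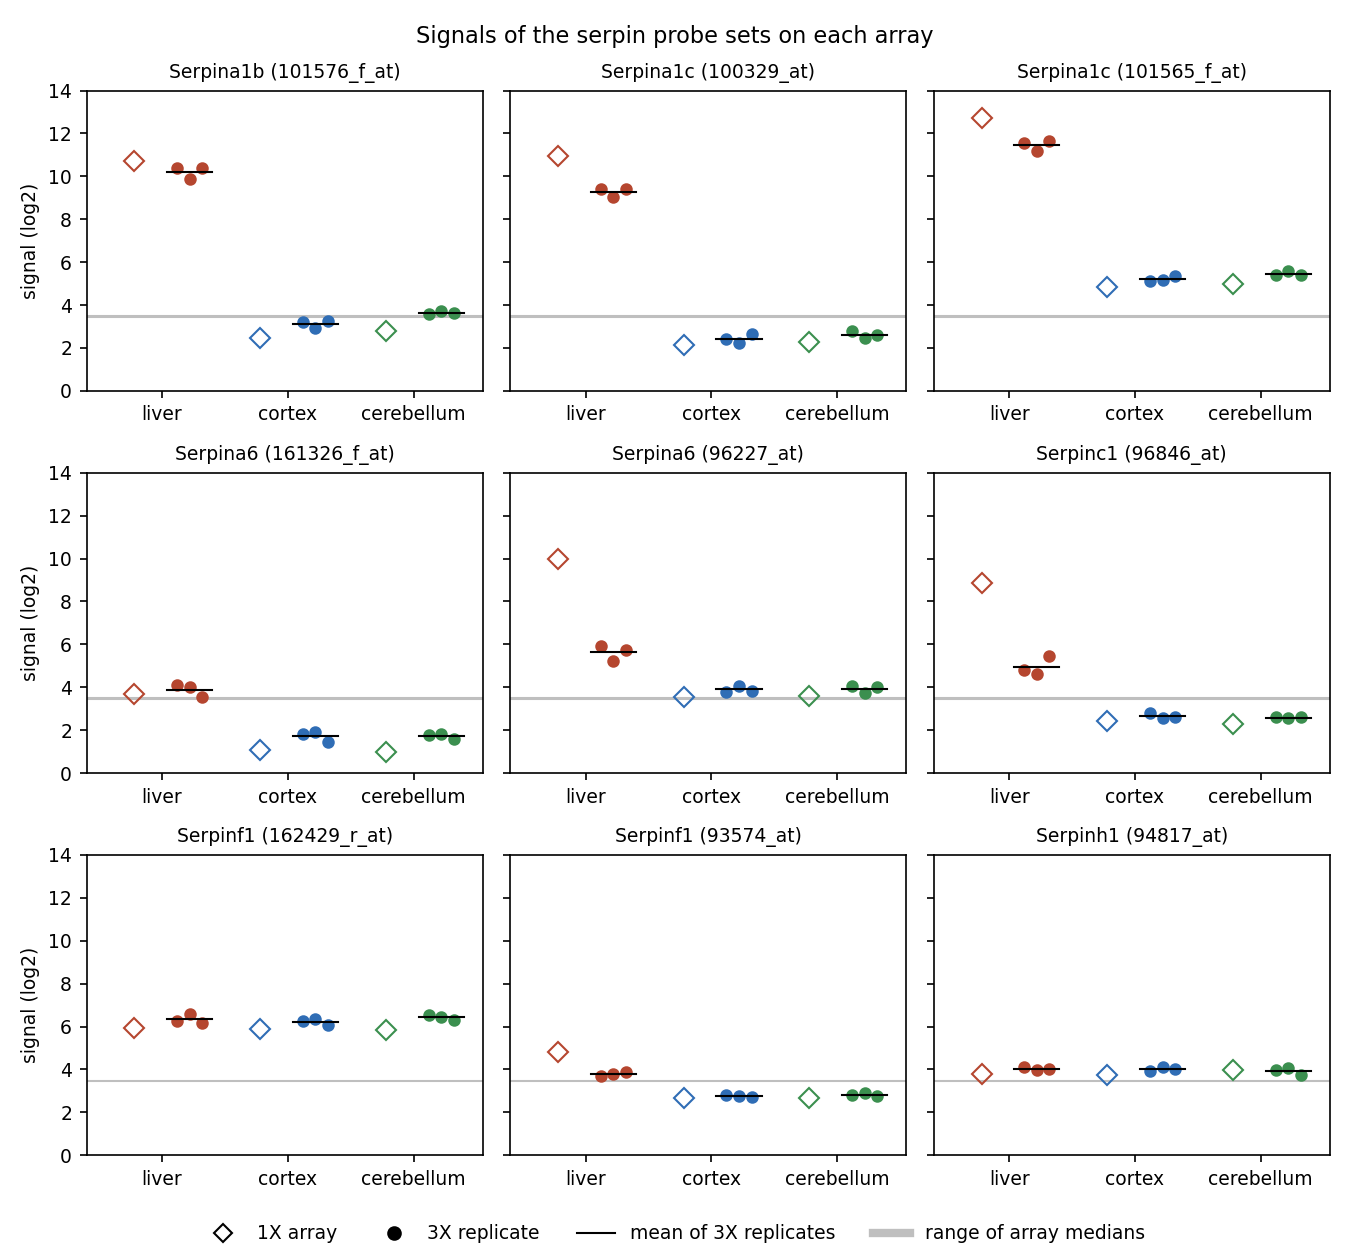
Log2 signals of the 9 serpin probe sets on each of the 12 arrays, by tissue; open diamonds are 1X arrays, filled points the 3 3X replicates, black lines their means and the grey band the range of the array medians (3.45 to 3.48). All 3 3X liver points lie above all 6 3X brain points in 7 panels, while Serpinh1 and the Serpinf1 probe set 162429_r_at overlap between tissues.

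Liver against brain was the comparison in which most serpins differed. At 3X, 7 of the 9 probe sets, which stand for 5 of the 6 genes, were called higher in liver than in the mean of cortex and cerebellum, against a background of 8.17% of all probe sets called higher. The median difference of the 9 was 2.16, against 0.012 for all probe sets. As the members were chosen with earlier results of these data known, these shares describe them and test nothing. The same 7 were called higher against cortex alone, where the background was 6.64%, and against cerebellum alone, where it was 6.38%. In these 7 every 3X liver array lay above every 3X brain array, as did 9.1% of all probe sets. Limma called none of the 9 lower in liver, and none was lower at an unadjusted p under 0.05. Fewer cells of a type and less RNA per cell cannot be told apart in such tissue samples.

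Serpina1b and Serpina1c, the alpha-1-antitrypsin genes, showed the largest differences. The Serpina1b probe set 101576_f_at had a signal of 10.70 on the 1X liver array, and of 10.37, 9.86 and 10.40 on the 3X liver arrays. Its signals were 2.47 (1X) and 3.19, 2.93 and 3.25 (3X) in cortex, and 2.79 (1X) and 3.58, 3.71 and 3.65 (3X) in cerebellum. Every liver array was far above every brain array under both procedures, and the brain signals lay below or just above the array medians given above. The difference between 3X liver and brain was 6.83 ± 0.13 (SE, n = 3 arrays per tissue; limma adjusted p = 1.02e-10), and the corresponding difference of single arrays at 1X was 8.07.

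For Serpina1c the probe set 100329_at gave 10.93 in 1X liver and 9.42, 9.01 and 9.40 in 3X liver. In cortex it gave 2.12 (1X) and 2.44, 2.24 and 2.63 (3X), and in cerebellum 2.26 (1X) and 2.77, 2.47 and 2.59 (3X). All brain values were below the array medians, and the 3X liver arrays were 6.75 ± 0.12 above the 3X brain arrays (limma adjusted p = 1.02e-10; 1X 8.74). The second probe set of Serpina1c, 101565_f_at, gave 12.72 in 1X liver and 11.53, 11.19 and 11.66 in 3X liver. Its brain signals were well above the array medians, at 4.84 and 4.96 on the 1X arrays of cortex and cerebellum, 5.11, 5.16 and 5.34 in 3X cortex and 5.38, 5.59 and 5.38 in 3X cerebellum. The liver difference was 6.13 ± 0.11 (limma adjusted p = 1.02e-10; 1X 7.82). Both probe sets of Serpina1c thus separated liver from both brain regions without overlap. The suffix _f marks probes shared with related transcripts, and a further 3 probe sets of the array list several Serpina1 symbols, so the copies of this gene cluster are not fully resolved.

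Serpina6, the carrier of corticosteroids in plasma, has a probe set with a wide range between liver and brain at 1X, 96227_at. Its liver signal was 9.999 at 1X and 5.95, 5.23 and 5.75 at 3X. Cortex gave 3.55 (1X) and 3.78, 4.08 and 3.82 (3X), and cerebellum 3.57 (1X) and 4.05, 3.72 and 4.03 (3X). The liver arrays remained the highest at 3X, but by a far smaller distance: 1.73 ± 0.15 (limma adjusted p = 1.43e-05), against 6.44 between the 1X arrays. In an additive fit of all 12 arrays, which pools both procedures, the tissue difference was 2.90. The probe set 161326_f_at of the same gene was dim throughout, with 3.69 in 1X liver and 4.10, 4.03 and 3.53 in 3X liver. It gave 1.09 (1X) and 1.80, 1.92 and 1.43 (3X) in cortex and 1.00 (1X) and 1.78, 1.82 and 1.58 (3X) in cerebellum. Liver was again above brain on every array, by 2.16 ± 0.14 at 3X (limma adjusted p = 1.84e-06) and 2.64 at 1X.

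Serpinc1, antithrombin, resembled Serpina6 in the distance between the procedures. The probe set 96846_at gave 8.84 in 1X liver and 4.80, 4.64 and 5.46 in 3X liver. Its brain signals were below the array medians on every array, at 2.42 (1X) and 2.80, 2.57 and 2.59 (3X) in cortex, and at 2.28 (1X) and 2.60, 2.56 and 2.60 (3X) in cerebellum. The liver difference was 2.34 ± 0.15 at 3X (limma adjusted p = 1.65e-06) and 6.49 at 1X; without replicate 3 of 3X liver, the highest of the group, it was 2.10 and still called.

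Serpinf1 encodes PEDF, a secreted factor studied as an inhibitor of blood vessel growth, and its 2 probe sets disagreed. With 93574_at, liver gave 4.80 at 1X and 3.69, 3.79 and 3.86 at 3X, cortex 2.65 (1X) and 2.80, 2.77 and 2.70 (3X), and cerebellum 2.67 (1X) and 2.80, 2.88 and 2.75 (3X). These are signals near or below the array medians outside 1X liver, with no overlap between liver and brain. The difference was 1.00 ± 0.07 at 3X (limma adjusted p = 2.59e-06) and 2.15 at 1X. With 162429_r_at, whose suffix _r marks probes chosen under relaxed rules, 1X signals were 5.91 in liver, 5.89 in cortex and 5.85 in cerebellum. The 3X signals were 6.25, 6.57 and 6.17 in liver, 6.24, 6.35 and 6.07 in cortex and 6.52, 6.46 and 6.32 in cerebellum, so that all tissues overlapped. Its liver difference had a 95% interval of -0.229 to 0.231 (limma adjusted p = 0.997). A mean of both probe sets gave 0.499 (limma adjusted p = 0.000608), a value that averages the disagreement. This mean was 1 of 16 alternatives for 162429_r_at, which gave -0.118 to 0.499, and it was the only one called.

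Serpinh1, the collagen chaperone, was the member without a tissue difference that could be detected. The probe set 94817_at gave 3.77, 3.76 and 3.99 on the 1X arrays of liver, cortex and cerebellum. At 3X the signals were 4.12, 3.95 and 3.998 in liver, 3.91, 4.12 and 4.02 in cortex and 3.96, 4.08 and 3.72 in cerebellum. All tissues overlapped, at signals somewhat above the array medians. The liver difference was 0.05 ± 0.09, with a 95% interval of -0.149 to 0.258 (limma adjusted p = 0.753).

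**Figure D2:**
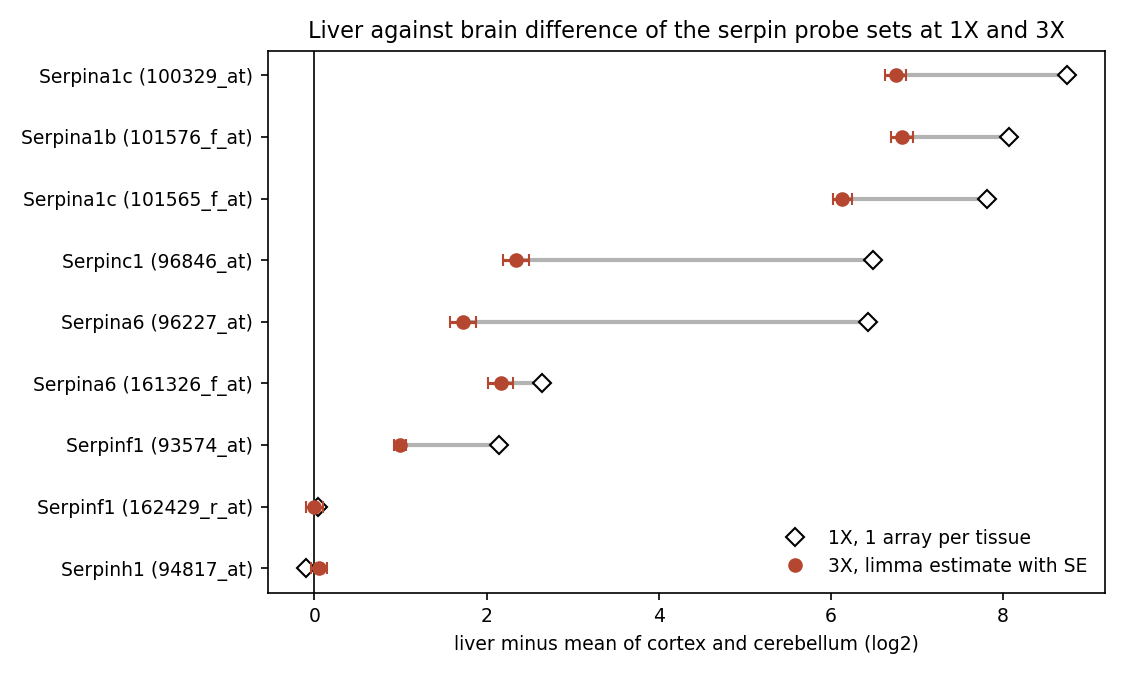
Liver signal minus the mean of cortex and cerebellum (log2) for the 9 serpin probe sets; diamonds are the single 1X arrays, red points the limma estimates at 3X with their SE, and grey lines join the procedures. The distance is longest for Serpina6 (96227_at, 6.44 to 1.73) and Serpinc1 (6.49 to 2.34).

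Few probe sets of any kind were called between the brain regions, so an absence of calls among 9 says little about the serpins. None of the 9 probe sets was called between cortex and cerebellum at 3X with limma, 1 had an unadjusted p under 0.05, and the background was 0.435% of all probe sets called higher and 0.628% called lower in cortex. That 1 was Serpina1b, with a cortex minus cerebellum difference of -0.52 ± 0.14 (limma adjusted p = 0.183). The 3 cortex arrays all lay below the 3 cerebellum arrays, and the difference of the single 1X arrays was -0.31. It was called with the cortex and cerebellum arrays fitted alone (adjusted p = 0.0264) and without replicate 2 of 3X liver (adjusted p = 0.0423); over 17 alternatives the adjusted p was 0.0264 to 0.653. The sums of kidney, blood cell and oligodendrocyte markers moved with it, being higher in cerebellum as given above, with 5 of 13 kidney markers called lower in cortex. Their part in the result was not tested. Summed hepatocyte markers were 157.1 to 161.7 in 3X cortex and 155.8 to 157.7 in 3X cerebellum, against 7699 to 14877 in 3X liver.

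The 3X procedure was set against 1X, the comparison the series was made for, first over all tissues with tissue in the model. Only 2 of 9 probe sets were called, both higher at 3X, against a background of 37.5% of all probe sets called higher and 19.5% called lower. They were 162429_r_at of Serpinf1 (0.45 ± 0.10, limma adjusted p = 0.0028) and the dim 161326_f_at of Serpina6 (0.52 ± 0.15, limma adjusted p = 0.012), compared with a median of 0.118 over all probe sets. The Serpinf1 call was lost with the mean of both its probe sets (0.09, adjusted p = 0.471) and without cerebellum (0.37, adjusted p = 0.0535); over 17 alternatives the adjusted p was 0.00079 to 0.471. The Serpina6 value turned to -0.174 after quantile normalization of the arrays (adjusted p = 0.534; 0.00106 to 0.534 over 15 alternatives). In 6 of the 9 the estimate was below 0 in liver and above 0 in both brain regions.

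In liver, 5 of 9 probe sets were called lower at 3X, against 15.7% of all probe sets called lower and 19.8% called higher. Serpina6 (96227_at) fell by 4.36 ± 0.24 (limma adjusted p = 9.33e-07), a 20.5-fold drop in signal, and Serpinc1 fell by 3.88 ± 0.25 (limma adjusted p = 2.18e-06), a 14.7-fold drop. Both were bright at 1X and only moderately above the array medians at 3X. The dim probe set 161326_f_at of Serpina6 did not share the drop, at 0.20 ± 0.23 (limma adjusted p = 0.515), and the mean of both Serpina6 probe sets gave -2.08. Serpina1c fell by 1.65 ± 0.20 with 100329_at (limma adjusted p = 0.000141) and by 1.26 ± 0.18 with 101565_f_at (limma adjusted p = 0.000474), and Serpinf1 (93574_at) fell by 1.02 ± 0.11 (limma adjusted p = 8.55e-05). After quantile normalization, the value of 101565_f_at was -0.08 (adjusted p = 0.754; 8.95e-05 to 0.754 over 14 alternatives) and that of 100329_at was -1.06. Serpina1b was at -0.49 ± 0.20 (limma adjusted p = 0.0862) and at 0.09 after quantile normalization.

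In each of these comparisons a lone 1X array was set against 3 3X arrays and assumed to vary like them. The brain signals of the members went up where they were called. The medians over all probe sets were above 0 too, at 0.114 in cortex and 0.139 in cerebellum. In cortex Serpina1b alone was called, 0.65 ± 0.20 higher at 3X (limma adjusted p = 0.0386), against 12.4% of all probe sets called higher. That call was lost without replicate 1 or 3 of 3X cortex or without any of the 3 cerebellum replicates, with adjusted p between 0.0544 and 0.0863. In cerebellum 3 probe sets were called higher against a background of 16.9%: Serpina1b by 0.86 ± 0.20 (limma adjusted p = 0.00963), 161326_f_at of Serpina6 by 0.73 ± 0.23 (limma adjusted p = 0.0372) and 162429_r_at of Serpinf1 by 0.59 ± 0.17 (limma adjusted p = 0.0232). The Serpina6 value was -0.57 after quantile normalization, and its call was also lost without replicate 1 or 2 of 3X cerebellum or replicate 1 of 3X cortex; that of Serpinf1 was lost without replicate 1 or 2 of 3X cerebellum. These are changes of dim signals, or of a probe set with the same signal in all tissues.

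**Figure D3:**
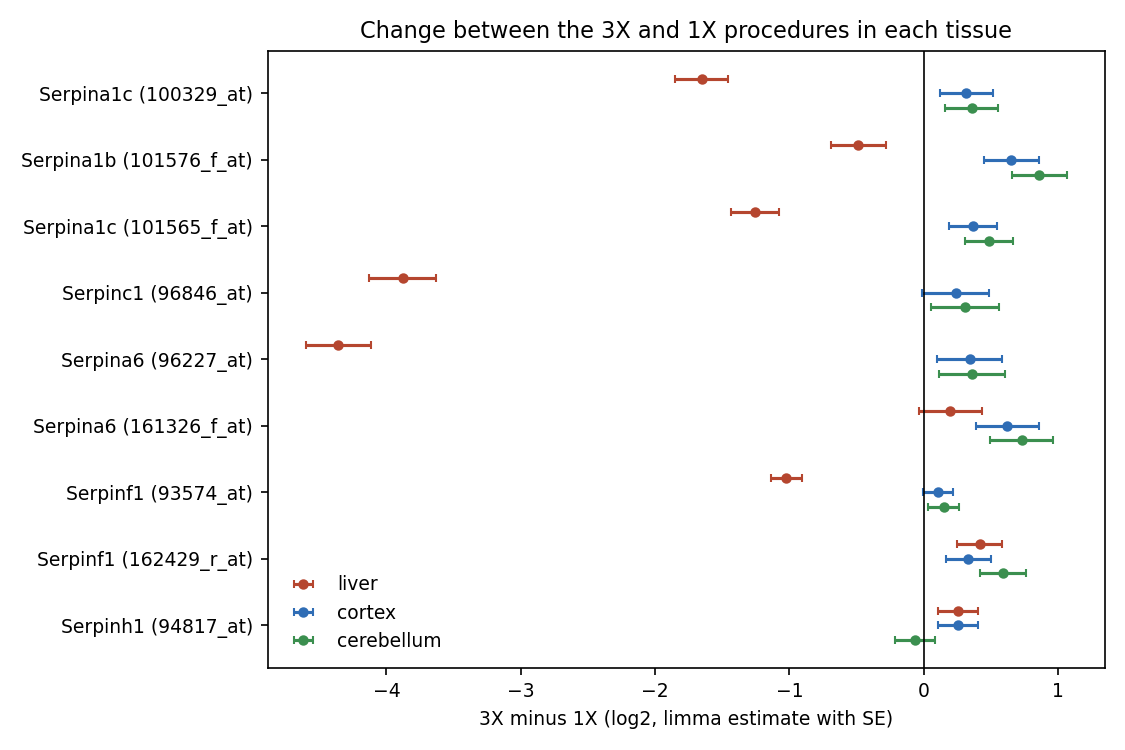
Difference between 3X and 1X (log2, limma estimate with its SE) for the 9 serpin probe sets in liver (red), cortex (blue) and cerebellum (green). Liver points lie left of 0 and of the brain points for Serpina1b, both probe sets of Serpina1c, Serpinc1, Serpina6 (96227_at, -4.36) and Serpinf1 (93574_at). For 161326_f_at of Serpina6 the liver point (0.20) is also left of the brain points, but above 0. Brain points lie at or above 0, apart from Serpinh1 in cerebellum (-0.06).

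Whether the procedures differed by a different amount in each tissue was tested with a moderated F test of the interaction. It called 6 of 9 probe sets, for 5 genes, against 10.4% of all probe sets. In all 6 the liver difference from brain was smaller at 3X, a direction in which 6.37% of all probe sets were called by the single contrast. The contrast, 3X minus 1X in liver less the same in brain, was -4.71 ± 0.30 for Serpina6 with 96227_at (limma adjusted p = 4.9e-06) and -4.15 ± 0.31 for Serpinc1 (limma adjusted p = 1.21e-05). It was -1.99 ± 0.24 and -1.69 ± 0.22 for the Serpina1c probe sets 100329_at and 101565_f_at, -1.24 ± 0.25 for Serpina1b (limma adjusted p = 0.00695) and -1.15 ± 0.14 for Serpinf1 with 93574_at. The median of this contrast over all probe sets was 0.024. Between the 2 probe sets of Serpina6 the values were thus -4.71 and -0.48 ± 0.29 (limma adjusted p = 0.409), and their mean gave -2.59.

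Normalization bears on the size of this narrowing. After quantile normalization of the arrays, the contrast was -0.59 for Serpina1b (adjusted p = 0.118; 0.00205 to 0.118 over 14 alternatives) and -0.59 for 101565_f_at of Serpina1c (adjusted p = 0.135; 7.54e-05 to 0.135 over 14 alternatives), neither of them called. It was still called for 100329_at of Serpina1c (-1.25), 96227_at of Serpina6 (-4.34), Serpinc1 (-3.71) and 93574_at of Serpinf1 (-0.94). The other probe sets of the last gene and of Serpina6, not called in either setting, were at -0.01 (162429_r_at) and 0.64 (161326_f_at). The ends of control transcripts differed between the procedures as well: the 3′ minus the 5′ probe set of beta-actin was -0.93 to -0.52 at 1X and 0.89 to 3.09 at 3X, and that of Gapdh was -3.50 to -2.93 at 1X and -2.58 to -1.28 at 3X. For pyruvate carboxylase it was -3.77 to -2.15 at 1X and -4.27 to -2.95 at 3X, and for the transferrin receptor -0.02 to 0.13 and -0.09 to 0.55. The part of this in the serpin values was not tested.

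Among the wider family, 17 other serpin genes were measured. In 3X liver against brain, 6 of them were called higher and 1 lower, against 8.17% and 12.3% of all probe sets. Their median difference was 0.12. In all comparisons of gene lists the probe set with the highest mean stood for a gene. Serpina1e, a further copy of alpha-1-antitrypsin, was 5.51 ± 0.10 higher (limma adjusted p = 1.02e-10), Serping1, the C1 inhibitor of the complement system, 4.29 ± 0.12 higher, and Serpina10, an inhibitor of clotting factor X, 3.05 ± 0.13 higher. Serpini1 (neuroserpin), an inhibitor of tissue plasminogen activator in neurons, was lower in liver (difference -2.12 ± 0.17, limma adjusted p = 9.14e-06), in a direction in which 12.3% of all probe sets were called. The contrast between the procedures was called below 0 for 6 of these 17 genes, against 6.37% of all probe sets, among them Serpina1e (-2.24 ± 0.21, limma adjusted p = 4.73e-05). For Serpini1 it was called above 0, at 1.70 ± 0.35; as this gene was higher in brain (1X -3.82, 3X -2.12), its tissue difference was smaller at 3X too.

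**Figure D4:**
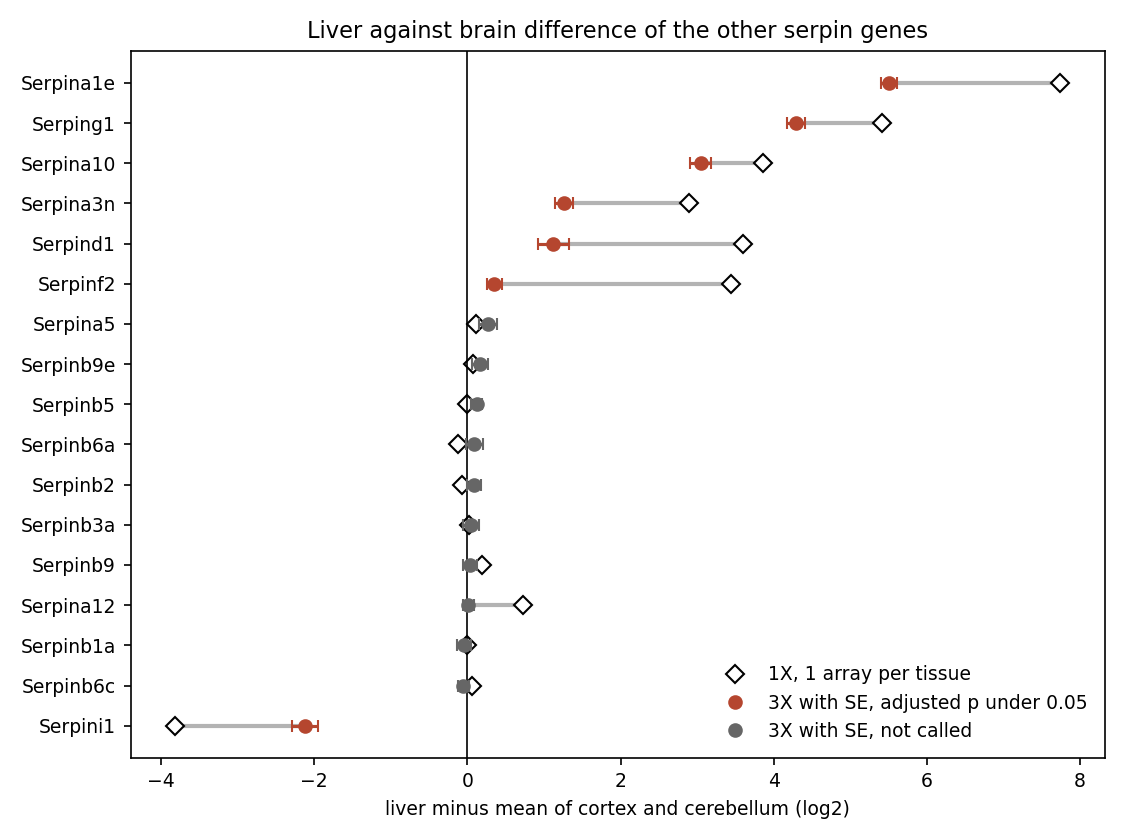
Liver signal minus the mean of cortex and cerebellum (log2) for the 17 other measured serpin genes; diamonds are the single 1X arrays, points the limma estimates at 3X with SE, red where the adjusted p was under 0.05. Serpina1e (5.51), Serping1 (4.29) and Serpina10 (3.05) lie farthest right and Serpini1 (-2.12) farthest left, and 10 genes with 3X estimates near 0 were not called.

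Of 28 measured proteases that serpins act on, 14 were called higher and 1 lower in 3X liver (median 0.25), against 8.17% and 12.3% of all probe sets. Plasminogen (Plg), the precursor of plasmin, was 8.76 ± 0.25 higher, and the clotting factors F9, F2 and F12 were 1.80 ± 0.15, 1.76 ± 0.13 and 1.60 ± 0.22 higher. F2, prothrombin, is the precursor of the thrombin that antithrombin inhibits, and its difference narrowed from 6.08 at 1X (contrast -4.32), a value beside the -4.15 of Serpinc1. The differences of F9 (contrast -1.61) and F12 (-1.87) narrowed as well. Over the 28 genes the contrast ran from -4.32 (F2) to 0.84 (Klk1), with a median of -0.10. For Plg it was -0.23 ± 0.49, so a large difference from brain was not always seen to narrow. This Plg value rests on 1 of the 2 probe sets of the gene, with the suffix _f, and the other one is not given here. Of 26 other protease inhibitors of plasma and tissue, 12 were called higher and 3 lower in liver (median 0.13), against the same shares of all probe sets. The higher ones were led by Ahsg (6.64 ± 0.12), Ambp (5.88 ± 0.17), Pzp (4.99 ± 0.23) and Kng1 (4.23 ± 0.14). For 12 of the 26 the contrast between the procedures was called below 0, against 6.37% of all probe sets.

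Genes around the collagen chaperone were mostly near 0 at 3X, but not all of them at 1X. Of 22 collagen chains 1 was called higher in 3X liver (Col18a1, 0.70 ± 0.11, 1X 2.95), against 8.17% of all probe sets. Their median was 0.06, and an unadjusted limma p under 0.05 was reached by the same number of chains. Among 16 genes of collagen folding and modification, 2 were called higher and 2 lower, against 8.17% and 12.3% of all probe sets. Ppib, a prolyl isomerase, was 1.21 ± 0.12 higher (1X 1.67) and Pdia4, a disulfide isomerase, 0.43 ± 0.09 higher (1X 1.46). The lower ones, named after their values were seen, were P4ha1 (-0.39 ± 0.10) and Plod3 (-0.24 ± 0.07), which hydroxylate collagen. The contrast between the procedures was called below 0 for 4 of the 16, against 6.37% of all probe sets: Pdia4, Pdia6 (1X 2.28, 3X 0.41), Hspa5 (1X 1.82, 3X 0.02) and Pdia3 (1X 1.75, 3X -0.01), the last pair also named after their values were seen. Of 13 genes of the heat shock response, 4 were called lower in liver and 1 higher, against 12.3% and 8.17% of all probe sets. Hsph1 (-1.80 ± 0.17), Hsp90aa1 (-1.52 ± 0.14) and Hspa8 (-1.41 ± 0.24), which are cytosolic chaperones, were lower, and Hspd1, the mitochondrial chaperonin, was 1.00 ± 0.12 higher.

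In the handling of corticosteroids and thyroid hormone, to which Serpina6 belongs, 3 of 8 measured genes were called higher in 3X liver, against 8.17% of all probe sets. Their median was 0.47. Alb, the less specific carrier, was 7.32 ± 0.22 higher, Akr1c6, a steroid dehydrogenase, 6.48 ± 0.25 higher, and Hsd11b1, which regenerates active corticosteroid, 0.69 ± 0.11 higher. The Hsd11b1 difference was 4.76 at 1X (contrast -4.07), beside -4.71 for 96227_at and -0.48 for 161326_f_at of Serpina6. Ttr, the thyroid hormone carrier, was at 0.75 ± 0.26 (limma adjusted p = 0.0651). Among 9 receptors and cofactors of serpin clearance, Vldlr alone was called, and it was lower in liver (-1.01 ± 0.13). This count is near the 12.3% of all probe sets called lower. Of 13 liver transcription factors, Cebpa (0.89 ± 0.08) and Onecut1 (0.32 ± 0.07) were called higher at 3X, against 8.17% of all probe sets. The median contrast between the procedures over these 13 was -0.67, against 0.024 for all probe sets, so the 3X values alone do not describe 1X. Of 11 hepatocyte markers, 6 had a contrast called below 0, against 6.37% of all probe sets, while Hpx (0.87, limma adjusted p = 0.0543) and Otc (0.55, limma adjusted p = 0.44), named after their values were seen, lay above 0.

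The profiles most like those of each member were sought over all 12 arrays among 4784 other genes, as a description in which the arrays share 3 tissues and 2 procedures. Serpina1b was most like Bhmt (r = 0.997), a methyltransferase, and Serpina1c was most like Apoa1 with both probe sets (r = 0.998). Serpinc1 was most like Apoc4 (r = 0.996) and Apom (r = 0.995), which are apolipoproteins, and Serpinf1 with 93574_at most like Gnmt (r = 0.994). The probe sets of Serpina6 had different neighbours, Cebpa (r = 0.991) for 96227_at and Arg1 (r = 0.980) for 161326_f_at. For 162429_r_at of Serpinf1 it was AU021092 (r = 0.942), and Serpinh1 reached 0.874, with Lamb2, a laminin chain. Where liver and brain differ widely, most of such a correlation is the gap between the tissues.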

How the data were processed

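Signals of 12 arrays in 6 groups (3 tissues, 1X with 1 array and 3X with 3 technical replicates) were read from the series' value table. The values are log2 signals that the authors made with RMA, per the submitters' processing notes. Not given in the sources used here: its version, the base of the logarithm, and whether the arrays were run together. The highest value, 14.46, exceeds the natural log of a 16-bit maximum (11.09), hence base 2.

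Of 12488 probe sets, 66 manufacturer controls were left out of the tests. Of the other 12422, 10833 carried 1 gene symbol in the platform annotation, 396 several and 1193 none; names come from the first kind, and 10817 of their gene IDs were found in the RefSeq table of GRCm38.p6, with no symbol changed. The files name no genome build, so coordinates are RefSeq's.

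limma 3.58.1 in R 4.3.3 was used (lmFit, contrasts.fit, eBayes, two-sided, Benjamini-Hochberg over 12422 probe sets). Tissues were compared in a fit of the 9 3X arrays; 3X minus 1X came from an additive model with tissue over 12 arrays, and its dependence on tissue from 6 group means. Scripts were tested on simulated data. All member probe sets are named, with up to 4 genes per list by the size of the 3X liver difference, and the 3 most alike profiles per probe set, of which the first ones are given. The members and lists were chosen with earlier results of these data known. Alternatives were 2 renormalizations, 2 probe set filters, gene means, a trended robust eBayes, other sets of arrays, a replicate block and leaving out each array. The number of arrays limits the precision.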

Additional observations from a re-analysis of the deposited data

Results flagged for a closer look

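The change between the 3X and 1X procedures differed between liver and brain for 6 serpin probe sets. The test was limma's contrast of 3X minus 1X in liver less the mean of the same in cortex and cerebellum. With 1 array per tissue at 1X, the spread was taken from the 3X arrays. It was -4.71 for Serpina6 (96227_at) and -4.15 for Serpinc1, and lay between -1.15 and -1.99 for the others: -1.15 for Serpinf1 (93574_at), -1.24 for Serpina1b, -1.69 for Serpina1c with 101565_f_at and -1.99 with 100329_at. After quantile normalization the calls of Serpina1b (-0.589, adjusted p = 0.118; 0.00205 to 0.118 over 14 alternatives) and of 101565_f_at (-0.594, adjusted p = 0.135; 7.54e-05 to 0.135 over 14 alternatives) were lost. In all 6 probe sets the deposited signal of the 1X liver array was above all 3 3X liver arrays.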

How the results depend on the processing

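Over the alternatives, the members' single values stayed on the same side of the threshold in 1202 cases, gained a call in 16 and lost it in 17. In 7 cases the sign changed and at least 1 of the settings gave a call. Sign changes without a call in either setting are counted in the 1202. Serpina1b in liver, for example, went from -0.487 to 0.090 after quantile normalization. The 7 member calls between liver and brain (and against each region) were 4 of 5 when probe sets with a suffix were left out. With probe sets above the median level (6211), the calls among all probe sets were 1607 for liver against brain (2537 before), 1347 against cortex (2082), 1341 against cerebellum (2059), 804 for the dependence on tissue (1294) and 3685 for 3X against 1X (7073), for which gene means gave 4586 and leaving out cerebellum 4337. Member calls in 3X against 1X were 2 of 9, beside 7073 of all 12422 probe sets. They were 1 of 7 above the median level (all: 3685 of 6211) and 0 of 5 without suffixes (5432 of 9614). With gene means they were 0 of 6 (4586 of 8251). Of the 9 member probe sets, 7 were called without liver, 1 without cortex and 0 without cerebellum. The counts over all 12422 were then 7125, 5162 and 4337. Without liver, Serpina1c turned to 0.337 and 0.427, Serpina6 (96227_at) to 0.351 and Serpinc1 to 0.273, all called. After quantile normalization, 161326_f_at of Serpina6 turned to -0.174 over all tissues and to -0.573 in cerebellum. The mean of both Serpinf1 probe sets was 0.431 above cerebellum, where 162429_r_at alone was at -0.11. Cortex against cerebellum gave 132 calls, and 262 with 1 member call from these arrays alone; leaving out an array gave 82 (without replicate 2 of cerebellum) to 250 (without replicate 3 of liver), and 0 to 1 member calls. The causes of these changes were not tested. Counts above the median level, without suffixes and with gene means rest on fewer tests (6211, 9614 and 8251, against 12422). Such raw counts cannot be compared directly with those of the main fit.

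The replicate numbers were not treated as a pairing in the main fits, because the labels do not say that they pair arrays. Deviations from the group means correlated at -0.099 to 0.342 in the 9 same-numbered pairs, with 5 above 0.1. As the deviations of a group sum to 0, these correlations are not independent. The 3 pairs of replicates numbered 3 (0.294 to 0.342) exceeded each of the 18 other pairs, which lay at -0.359 to 0.248 with 4 above 0.1; this is a hint from the data, not the design. With the replicate number as a block, 2729 probe sets were called between liver and brain, 2277 against cortex, 2225 against cerebellum and 170 between the brain regions, with 7, 7, 7 and 0 members. No paired analysis was possible for 3X against 1X because the 1X arrays carry no number. Dim signals limit the differences: most brain signals of the secreted serpins lay near or below the array medians.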
